A study of Mus musculus with 8 samples.

Results

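This report follows the transcripts of 8 mouse genes that make or cut the amyloid precursor protein, or that encode tau, in the hippocampus of young and very old mice. The genes are the precursor App and its relatives Aplp1 and Aplp2, the secretase genes Bace1, Adam10, Psen2 and Ncstn, and the tau gene Mapt. They were chosen by name, and each probe whose transcript mapped to one of them was kept. This gave 10 probes for the 8 genes, of 39429 probes and 19751 named genes on the array. Mapt had 3 probes and each other gene had 1.

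The amyloid precursor protein is a membrane protein of neurons and other cells. Cutting by beta-secretase (BACE1) and then by the gamma-secretase complex, which contains a presenilin and nicastrin, releases the amyloid beta peptide, whereas alpha-secretase (ADAM10) cuts inside the amyloid beta sequence and so prevents its release. Tau binds microtubules, mainly in axons, and forms tangles in Alzheimer disease. Wild-type mice, such as those studied here, do not deposit amyloid plaques, so that the comparison is one of normal aging and not of a disease model.

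All mice were wild-type C57BL/6J, received no treatment and were kept in home cages. Per the study's methods, mice of the oldest age were bought already aged and then kept for some months in the authors' rooms. The part of this housing history in the age differences was not tested. The young group was 3 months old (3M, n = 4) and the aged group 29 months old (29M, n = 4). RNA came from the whole hand-dissected hippocampus, a mixture of neurons, glia, vessels and blood, and was labelled with Cy3 and hybridised to 1-colour Agilent arrays. The labels give no sex and do not say that each sample is a separate animal, so that p-values measure the spread between these samples. The comparison asks whether the abundance of these transcripts differs between the ages. The study also looked at exon usage of App and Bace1 in sequencing data, which was not analysed here. Where a transcript is read by 1 probe, its isoforms cannot be told apart.

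The 8 arrays lay on 3 slides, each of which held both ages. Slide 1 carried 3M replicate 1 and 29M replicates 3 and 4, slide 2 carried replicate 2 of both ages, and slide 3 carried 3M replicates 3 and 4 and 29M replicate 1. Between 76.2% and 85.0% of the spots on an array were well above background and none was saturated. The lowest share belonged to 3M replicate 1, the only array that the scanner software marked for evaluation. Pairwise correlations between arrays were 0.991 or higher. All 10 member probes were well above background on all 8 arrays, as were 77.6% of the tested probes on all arrays of at least 1 age.

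Values below are normalized log2 intensities, and a change is the mean at 29M minus the mean at 3M. A probe was called when its adjusted p (limma with Benjamini-Hochberg adjustment over 39408 tested probes) was under 0.1 and its log2 change in either direction at least 0.5. None of the 10 member probes was called, whereas 2.06% of all probes were (1.25% higher and 0.809% lower at 29M). The lowest adjusted p among the members was 0.267. Without adjustment, p was under 0.05 for 1 of the 10 (App), compared with 16.9% of all probes. The median log2 change of the 8 genes was 0.00067, beside 0.003 for all probes. The 95% interval of the change lay inside −0.5 to 0.5 for all 10 member probes, and for 68.4% of all probes. In whole tissue, fewer cells of a type and less RNA per cell cannot be told apart.

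**Figure D1:**
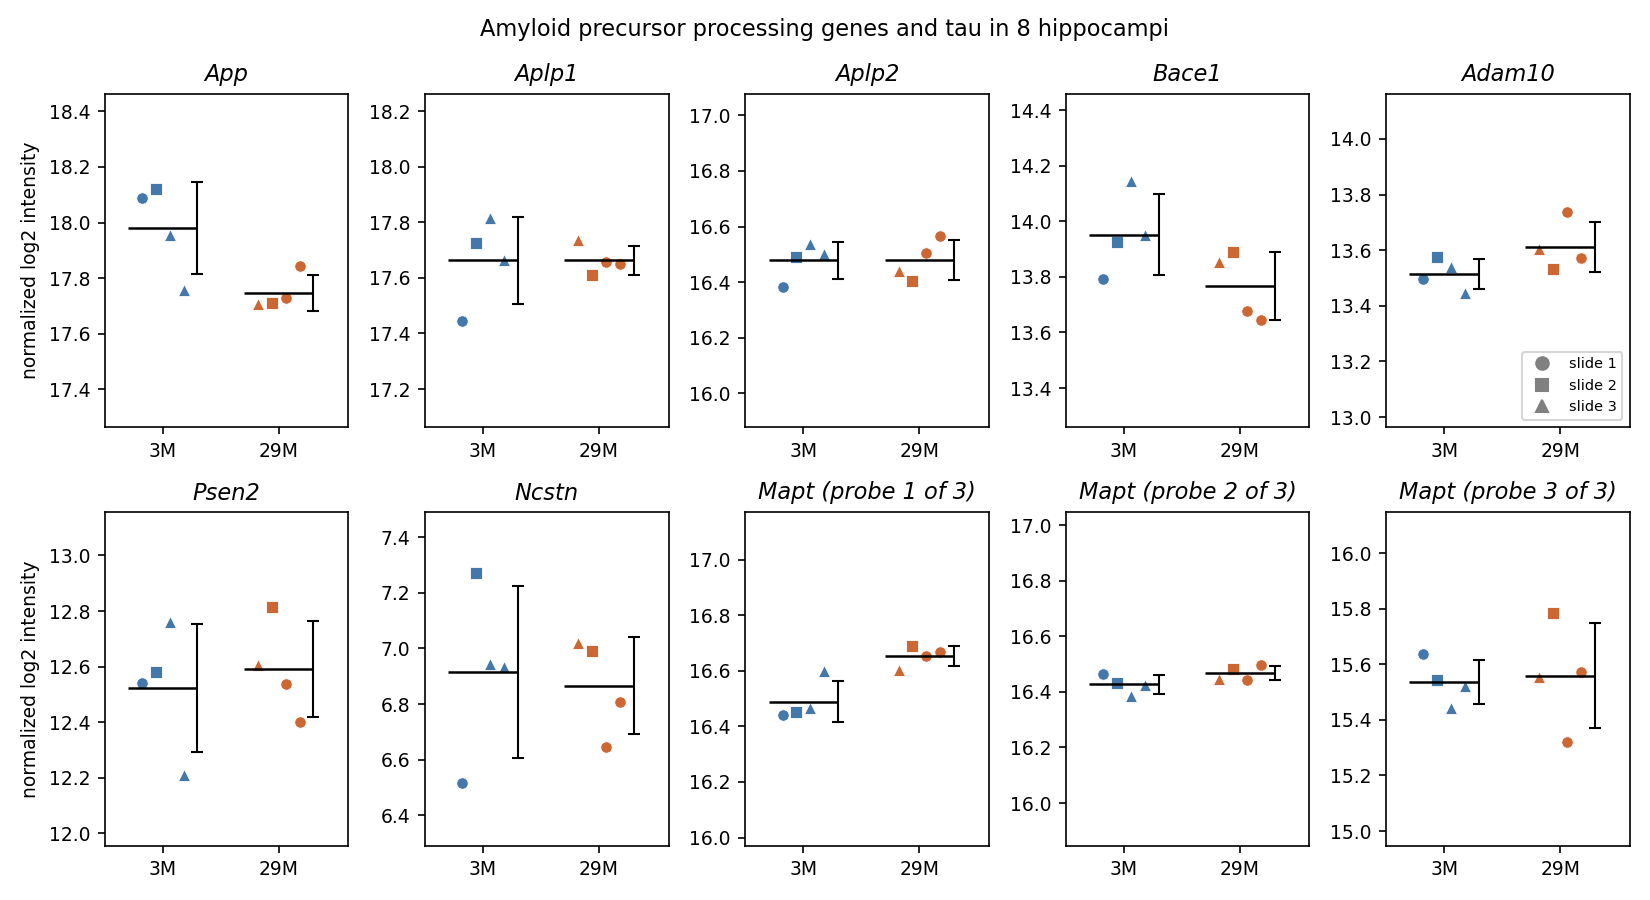
Normalized log2 intensity (vertical axis) of each member probe in the 4 arrays at 3M (blue) and the 4 at 29M (orange). Marker shapes give the slide, horizontal lines the group mean and bars the SD, and all panels span the same range on the log2 scale. The ages overlapped in all panels except that of the first Mapt probe, where the highest 3M array (16.60) nearly met the lowest 29M array.

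App, the gene of the amyloid precursor protein itself, had the largest change among the members. Its probe gave 18.09, 18.12, 17.96 and 17.76 in 3M replicates 1 to 4 and 17.71, 17.71, 17.73 and 17.84 in 29M replicates 1 to 4. The values of 3M replicates 1, 2 and 3 lay above all aged arrays, while that of 3M replicate 4 lay among them. The mean was 17.98 ± 0.17 (SD, n = 4) at 3M and 17.75 ± 0.07 (SD, n = 4) at 29M. The log2 change was −0.23 (SE 0.10, 95% interval −0.45 to −0.01), which is 0.851 of the young level with an interval from 0.731 to 0.990. In limma this gave an unadjusted p of 0.039 and an adjusted p of 0.267. The value was lower at 29M within each slide, by −0.30, −0.41 and −0.15 on slides 1, 2 and 3.

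Aplp1 and Aplp2 encode the amyloid precursor-like proteins, which are cut by the same secretases but hold no amyloid beta sequence. Aplp1 ranged from 17.45 to 17.82 at 3M and from 17.61 to 17.74 at 29M. Its lowest value was that of 3M replicate 1, and the aged arrays lay inside the range of the young ones. The log2 change of Aplp1 was 0.00066 (SE 0.09, 95% interval −0.21 to 0.21; limma adjusted p = 0.999). Aplp2 gave 16.38, 16.49, 16.54 and 16.50 at 3M and 16.44, 16.41, 16.50 and 16.57 at 29M, with the groups interleaved. Its log2 change was 0.00067 (SE 0.08, 95% interval −0.17 to 0.17; limma adjusted p = 0.998). For both relatives the differences within a slide had both signs, from −0.11 to 0.21 for Aplp1 and from −0.09 to 0.15 for Aplp2.

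Bace1 encodes the beta-secretase of neurons, which makes the cut that starts amyloid beta formation. Its probe gave 13.79, 13.92, 14.14 and 13.95 at 3M and 13.85, 13.89, 13.68 and 13.65 at 29M. The 2 lowest values were those of 29M replicates 3 and 4, both on slide 1, and the other aged arrays lay inside the young range. The mean was 13.95 ± 0.14 (SD, n = 4) at 3M and 13.77 ± 0.12 (SD, n = 4) at 29M. The log2 change of Bace1 was −0.19 (SE 0.10, 95% interval −0.41 to 0.04), or 0.879 of the young level, with a limma adjusted p of 0.391. Its values within slides 1, 2 and 3 were −0.13, −0.03 and −0.19.

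Adam10 encodes the main alpha-secretase of neurons. Its probe gave 13.50, 13.57, 13.54 and 13.45 at 3M and 13.61, 13.53, 13.74 and 13.57 at 29M. The highest value was that of 29M replicate 3, and 2 aged arrays lay inside or at the edge of the young range. The log2 change was 0.10 (SE 0.08, 95% interval −0.08 to 0.27; limma adjusted p = 0.574), with values of 0.16, −0.04 and 0.11 within slides 1, 2 and 3.

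Because both enzymes cut the same precursor, the Adam10 value minus the Bace1 value was also taken within each array, which removes the scaling between arrays. The sign of such a difference compares 2 probes and says nothing about which transcript is more abundant, so that only its change with age is used. It was −0.29, −0.35, −0.60 and −0.50 at 3M and −0.25, −0.36, 0.06 and −0.07 at 29M. The aged arrays on slide 1 were the highest, while 29M replicate 2 lay within the young range. The mean was −0.44 ± 0.14 (SD, n = 4) at 3M and −0.15 ± 0.18 (SD, n = 4) at 29M, and the difference of 0.28 did not pass an exact permutation test. The two-sided exact p over 70 splits was 0.0857, or 0.129 after Benjamini-Hochberg adjustment over the 3 within-array differences examined. Within slides 1 and 3 the values were 0.29 and 0.31, but on slide 2 the value was −0.01.

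**Figure D2:**
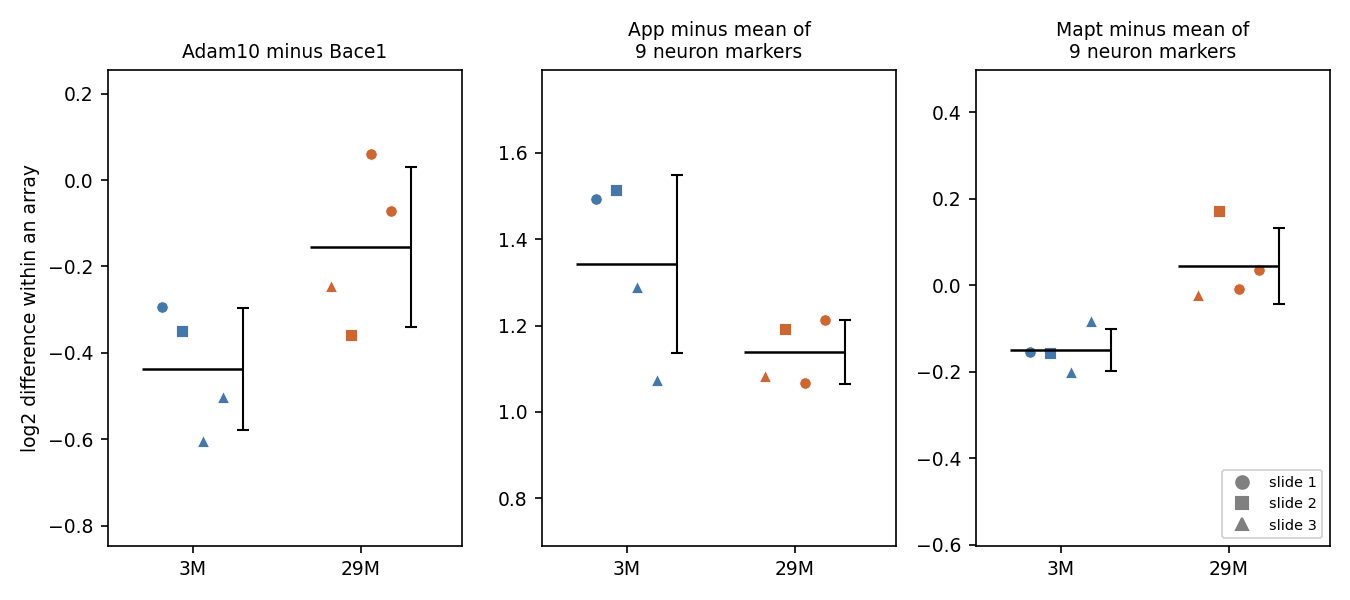
Log2 difference between 2 probes, or between a probe and the mean of 9 neuron markers, within each array (vertical axis) at 3M (blue) and 29M (orange). Marker shapes give the slide, lines the mean and bars the SD. The Mapt panel uses the brightest Mapt probe. It is the panel in which all aged arrays (lowest −0.02) lay above all young arrays (highest −0.08).

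Psen2 and Ncstn encode parts of gamma-secretase, namely presenilin 2, one of the catalytic subunits, and nicastrin, which receives the substrate. Psen2 gave 12.54, 12.58, 12.76 and 12.21 at 3M and 12.61, 12.81, 12.54 and 12.40 at 29M. The young arrays spanned nearly the whole range of the aged ones. The log2 change of Psen2 was 0.07 (SE 0.13, 95% interval −0.23 to 0.37; limma adjusted p = 0.842), and within slides it ran from −0.07 to 0.24.

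Ncstn was the dimmest member, with a raw spot intensity of 99 to 168.5 scanner units over a local background of 24 to 36. The spot was 3.68 to 5.27 times the background around it, and on the generalized log2 scale the change of so dim a probe can be understated. Its values were 6.52, 7.27, 6.94 and 6.93 at 3M and 7.02, 6.99, 6.65 and 6.81 at 29M, and the lowest and the highest both belonged to young arrays. Ncstn had a mean log2 difference of −0.05 (SE 0.16, 95% interval −0.40 to 0.30; limma adjusted p = 0.907). This was the widest interval among the members. On a plain log2 scale (processed signal scaled to the 75th percentile) the Ncstn change was −0.02, with a larger SE of 0.26 (limma adjusted p = 0.981). With an SE that large, an interval inside −0.5 to 0.5 is not shown for Ncstn on that scale. The other parts of gamma-secretase on the array were Psenen, Aph1a and Aph1b with 2 probes each, the brighter given first. They were added after their values were seen. Psenen had log2 changes of 0.16 and 0.22 (limma adjusted p = 0.497 and 0.345). Aph1a had −0.02 and −0.57 (limma adjusted p = 0.917 and 0.233), and the mean of its probes −0.30. Aph1b had −0.19 and −0.01 (limma adjusted p = 0.375 and 0.967). Aph1c had no matched probe and was not analysed here.

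Mapt, which encodes tau, was read by 3 probes, and 1 of them separated the ages. The brightest probe (A_55_P1954486) gave 16.44, 16.45, 16.46 and 16.60 at 3M and 16.60, 16.69, 16.65 and 16.67 at 29M. All aged arrays lay above all young arrays, but 3M replicate 4 and 29M replicate 1, both on slide 3, were nearly equal (16.599 and 16.602). Separate groups were found for 11.1% of all probes (5.52% with the aged arrays higher) and for 1 of the 10 member probes. The mean was 16.49 ± 0.07 (SD, n = 4) at 3M and 16.65 ± 0.04 (SD, n = 4) at 29M. The log2 change of this Mapt probe was 0.16 (SE 0.07, 95% interval −0.003 to 0.33), or 1.12-fold, with a limma unadjusted p of 0.053 and an adjusted p of 0.304. It was 0.22, 0.24 and 0.07 within slides 1, 2 and 3.

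The second Mapt probe (A_55_P2100149) gave 16.46, 16.43, 16.39 and 16.43 at 3M and 16.45, 16.48, 16.44 and 16.50 at 29M, so that the ages overlapped. Its log2 change was 0.04 (SE 0.07, 95% interval −0.11 to 0.20; limma adjusted p = 0.813). The third Mapt probe (A_55_P2100155) gave 15.64, 15.54, 15.44 and 15.52 at 3M and 15.55, 15.78, 15.32 and 15.57 at 29M, and the aged arrays held both its highest and its lowest value. Its log2 change was 0.02 (SE 0.11, 95% interval −0.22 to 0.26; limma adjusted p = 0.945). The mean of the 3 Mapt probes had a log2 change of 0.08, with an adjusted p of 0.622 in limma. Whether the 3 Mapt probes share 1 age change was tested with the diffSplice F-test of limma, which did not call them different (F = 1.03, unadjusted p = 0.373, adjusted p = 0.803). By this test the probes of 74 of 5196 genes (1.42%) disagreed.

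**Figure D3:**
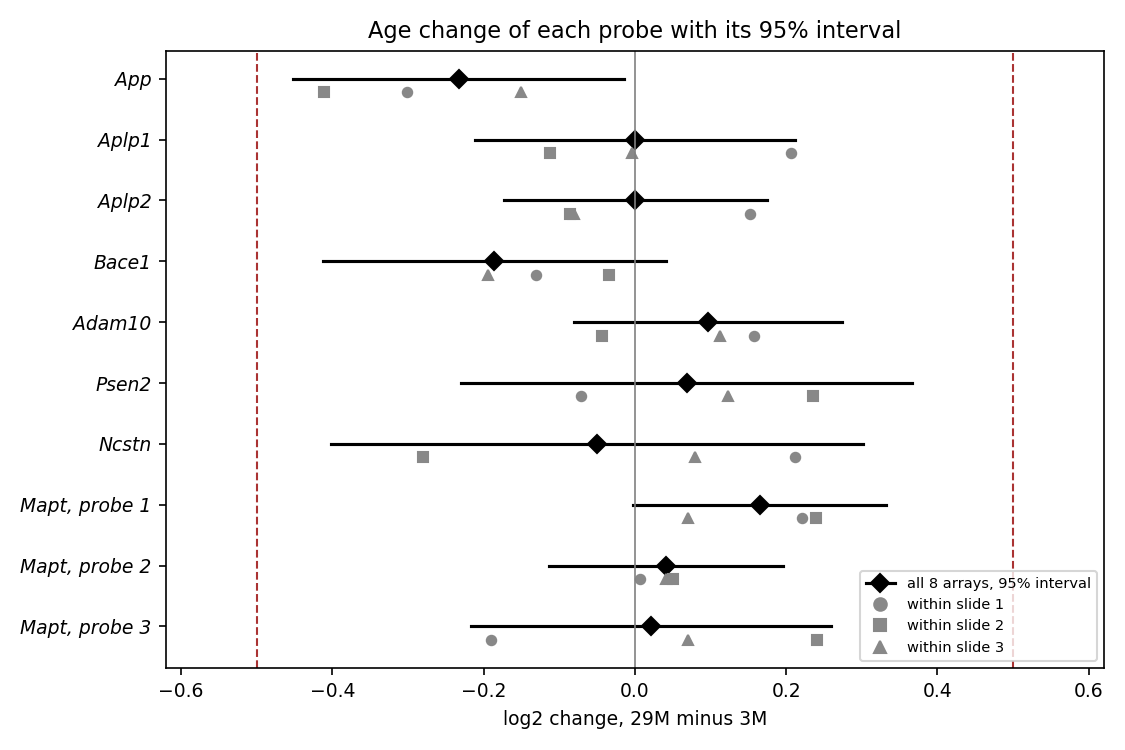
Log2 change from 3M to 29M (horizontal axis) of each member probe, with diamonds for the estimate over all 8 arrays, lines for its 95% interval and grey markers for the difference within each slide. Dashed lines mark the minimum change of 0.5 for a call. All 10 intervals lie between the dashed lines, and that of App (−0.45 to −0.01) is the one that does not reach 0.

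App and Mapt are both transcribed in neurons, so each was also set against 9 neuron markers in the same array. The mean of these markers was 16.59 to 16.68 at 3M and 16.52 to 16.66 at 29M, with a median log2 change of 0.02 and no marker called. Rbfox3, which encodes the nuclear protein NeuN, had a log2 change of 0.02 (−0.13 and −0.12 on its other probes), and Snap25, which encodes a protein of synaptic vesicle fusion, of −0.04. The marker that moved most was Nrgn, which encodes the postsynaptic protein neurogranin (log2 change −0.53, SE 0.14, limma adjusted p = 0.107), and it is named after its value was seen. Nrgn was 16.46 to 16.85 at 3M and 15.79 to 16.36 at 29M, without overlap. It was called without 3M replicate 1 (−0.59, limma adjusted p = 0.063) and without 29M replicate 3 (−0.60, limma adjusted p = 0.095), and also with all 8 arrays when only bright probes were tested or a robust prior was used (limma adjusted p = 0.085 in both).

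Relative to the neuron markers, the brightest Mapt probe was −0.15, −0.16, −0.20 and −0.08 in the young arrays and −0.02, 0.17, −0.01 and 0.03 in the aged arrays. This is the Mapt probe that also separated the ages on its own. All 4 aged arrays lay above all 4 young arrays. The mean difference was 0.19, with 0.17, 0.33 and 0.12 within slides 1, 2 and 3. The two-sided exact permutation p was 0.0286, the smallest that 4 against 4 arrays can give, and 0.0857 after adjustment over the 3 differences, which does not pass the threshold of 0.05 used for these tests. An adjusted p under 0.05 was possible only if another of the 3 differences had also reached this smallest p. The adjusted test therefore cannot decide on a single difference. Without Nrgn the difference for this Mapt probe was 0.13, with the same exact permutation p and adjusted p, a choice made after the data were seen. The other Mapt probes, on which the ages overlapped, were not set against the markers.

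App relative to the neuron markers was 1.49, 1.51, 1.29 and 1.07 in the young arrays and 1.08, 1.19, 1.07 and 1.21 in the aged arrays. As for App alone, 3M replicates 1, 2 and 3 were the highest and 3M replicate 4 lay with the aged arrays. The mean difference was −0.20 and did not pass the test (two-sided exact permutation p = 0.143, adjusted p = 0.143). Without Nrgn it was −0.27, with an exact permutation p and an adjusted p of 0.0857. Without 3M replicate 4 it was −0.29 with an exact permutation p of 0.0286 and an adjusted p of 0.0429, so that this array decided the call. The same omission gave the brightest Mapt probe a difference of 0.22, with its exact permutation p still at 0.0286. Its adjusted p in this test was 0.0429, lower only because App had now reached the same exact p.

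Around these genes, 6 lists of related genes were examined, with 139 of 141 genes measured. None of the 139 was called on its brightest probe, and none of their 201 probes was called. Across all named genes 1.58% were called higher and 0.689% lower on the brightest probe. At an unadjusted p under 0.05, 12 related genes were higher and 13 lower, together 18.0% of the lists. Of all named genes 9.44% were higher and 7.65% lower at this level, together 17.1%. With the adjusted p alone and no minimum change, 2 of the 139 passed (1.44%), compared with 3.77% of all named genes. These were Lgmn and Sorl1, and in both the ages did not overlap. Over the 139 genes, the ages did not overlap in 8 with higher and 9 with lower aged arrays. Among all probes, dim and unnamed ones included, the share without overlap was 11.1% (5.52% with the aged arrays higher). This share was not taken over the brightest probes of the named genes, so the bases differ.

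Lgmn encodes legumain, a lysosomal protease also known as delta-secretase, which can cut both the amyloid precursor protein and tau. Its values were 15.03, 14.93, 14.76 and 15.08 at 3M and 15.38, 15.27, 15.31 and 15.42 at 29M, and each aged array was above each young one. Lgmn had a mean log2 difference of 0.39 (SE 0.09, 95% interval 0.19 to 0.60; limma adjusted p = 0.073), and it was positive within each slide (0.33 to 0.46). Sorl1 encodes a sorting receptor that directs the precursor away from the compartments where amyloid beta is made. Its values were 13.80, 14.09, 14.02 and 14.05 at 3M and 13.55, 13.72, 13.64 and 13.34 at 29M, and each aged array was below each young one. The log2 change of Sorl1 was −0.43 (SE 0.11, 95% interval −0.67 to −0.19; limma adjusted p = 0.092), with −0.31, −0.37 and −0.49 within slides 1, 2 and 3. Lgmn was singled out after the values were seen, and both changes were under the minimum of 0.5. With 1 array left out, the limma adjusted p ran from 0.056 to 0.198 for Lgmn and from 0.044 to 0.236 for Sorl1. It stayed under 0.1 without 3M replicate 1 in both genes and without 3M replicate 4 in Lgmn, and not without any other array. With slide as a fixed block it was 0.145 for Lgmn and 0.137 for Sorl1 in limma.

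Among the secretases and the proteins of their maturation, 11 of 16 genes had a higher value at 29M and 5 a lower one (median log2 change 0.10). The largest difference upward was that of Bace2, a relative of Bace1 (0.45, SE 0.17, limma adjusted p = 0.233), and the largest downward was that of Adam17, another alpha-secretase (−0.23, SE 0.10, limma adjusted p = 0.269). The other Adam17 probe gave 0.05, and the mean of both was −0.09. The other Bace2 probe gave 0.25. Of the adaptors and trafficking genes of the precursor, 24 of 31 had a higher value and 7 a lower one (median 0.07). The largest downward difference in this list was that of Sorl1, described above.

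In the degradation and clearance of amyloid beta, 9 of 15 genes had a higher value and 6 a lower one (median 0.05). Ctsd, which encodes the lysosomal protease cathepsin D, was 15.71 to 16.07 at 3M and 16.11 to 16.29 at 29M on its brightest probe, without overlap (log2 change 0.27, SE 0.10, limma adjusted p = 0.211). On the other Ctsd probe the ages overlapped (0.33, limma adjusted p = 0.243). Ece2, which encodes an endothelin-converting enzyme that can degrade amyloid beta, gave 11.13, 11.14, 11.15 and 11.28 at 3M and 10.82, 10.49, 10.95 and 10.15 at 29M. The young arrays of Ece2 lay close together and above all aged arrays, which spread more widely. Its log2 change was −0.57 (SE 0.16, 95% interval −0.93 to −0.21), above the minimum in size but with a limma adjusted p of 0.123. Without 29M replicate 3 it was called (−0.69, limma adjusted p = 0.078).

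**Figure D4:**
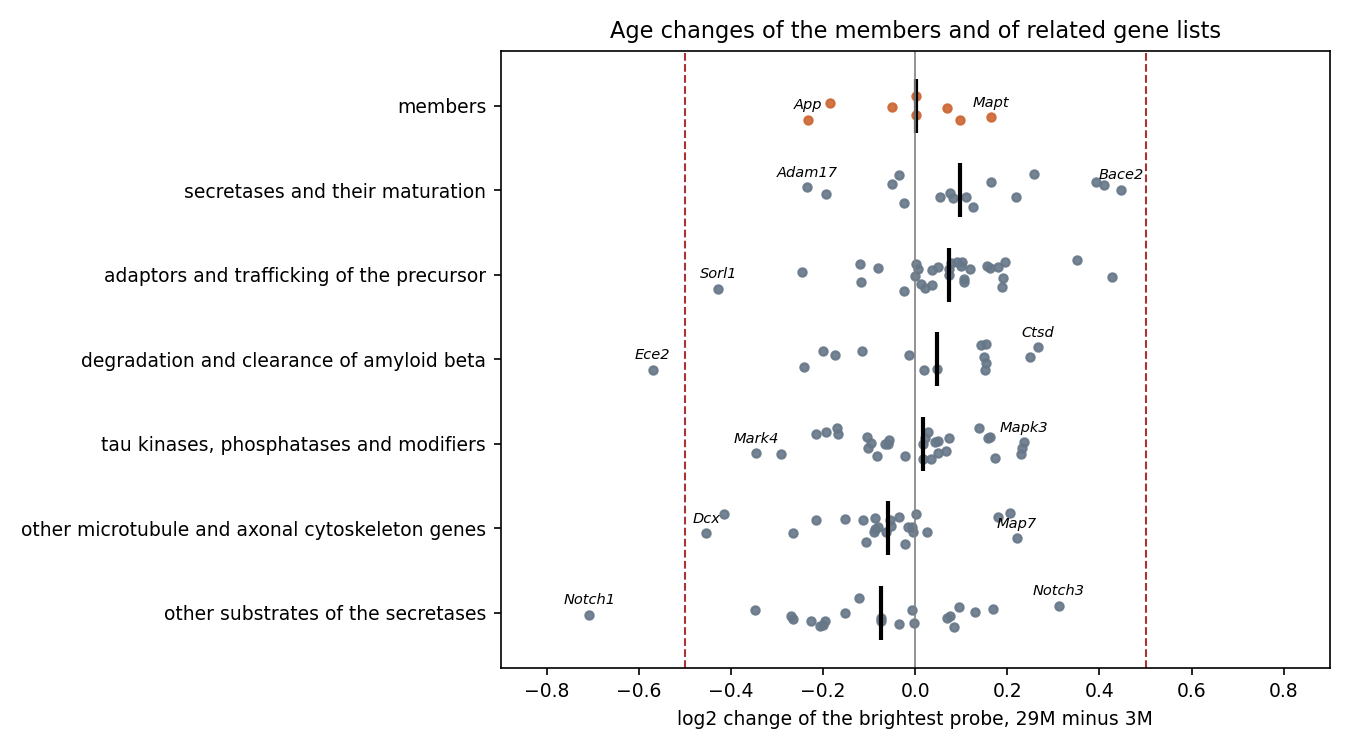
Log2 change from 3M to 29M (horizontal axis) of the brightest probe of each gene, by list, with 1 point a gene, black bars for the list medians and dashed lines at the minimum change of 0.5. The largest fall of each list is labelled, and the largest rise in all lists but that of the adaptors. The 8 members lie between −0.23 (App) and 0.16 (Mapt), and Ece2 and Notch1 are the points beyond a dashed line, Notch1 no longer so (−0.40) without 3M replicate 1.

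Of the tau kinases, phosphatases and modifiers, 17 of 31 genes had a higher value and 14 a lower one (median 0.02). Mapk3, which encodes the kinase ERK1, was 14.77 to 14.86 at 3M and 14.91 to 15.17 at 29M on its brightest probe, without overlap (log2 change 0.24, SE 0.08, limma adjusted p = 0.202). On the other Mapk3 probe the ages overlapped (0.14, limma adjusted p = 0.635), and the mean of both was 0.19. For Mark4, which encodes a kinase that can detach tau from microtubules, the change was −0.35 on the log2 scale (SE 0.13) at an adjusted p of 0.223 in limma. Of the other microtubule and axonal cytoskeleton genes, 5 of 24 had a higher value and 19 a lower one (median −0.06), while Mapt had a higher one. Dcx, which encodes doublecortin of immature neurons, was 11.23 to 11.74 at 3M and 10.86 to 11.20 at 29M, without overlap (log2 change −0.45, SE 0.12, limma adjusted p = 0.117). Its other probes, which were well above background on few or no arrays, gave 0.14 and −0.32, and the mean of the 3 was −0.21. For Map7, which encodes another microtubule-binding protein, the change was 0.22 on the log2 scale (SE 0.10) at an adjusted p of 0.317 in limma. The other Map7 probe gave 0.37.

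Of the other substrates of the secretases, 7 of 22 genes had a higher value and 15 a lower one (median −0.07). Notch3, a receptor found mainly on the smooth muscle cells and pericytes of vessels, was 11.53 to 11.65 at 3M and 11.72 to 12.19 at 29M, without overlap (log2 change 0.31, SE 0.12, limma adjusted p = 0.220). Notch1, a receptor cut by both Adam10 and gamma-secretase, gave 15.04, 13.82, 14.24 and 13.41 at 3M and 13.38, 13.46, 13.61 and 13.23 at 29M on its brightest probe. The young arrays of Notch1 were spread widely, with 3M replicate 1 far above the others. Its log2 change was −0.71 (SE 0.29, limma adjusted p = 0.260), and the other Notch1 probe gave −0.001. Without 3M replicate 1 the brightest Notch1 probe gave −0.40, under the minimum of 0.5.

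Markers of other cell types were read on the same arrays, and some of them differed with age. The mean of 8 microglia markers was 13.80 to 14.10 at 3M and 14.17 to 14.36 at 29M, and 7 of the 8 had a higher value at 29M (median log2 change 0.35). Of these, Trem2, a lipid receptor of microglia that is named after its value was seen, was called (0.65, limma adjusted p = 0.049). Aif1, which encodes the microglial protein Iba1, had a log2 change of 0.34 (limma adjusted p = 0.563). Without 3M replicate 1, which was far above the other young arrays, Aif1 was called (0.65, limma adjusted p = 0.030). Gfap, the intermediate filament of astrocytes, was called higher on all 3 of its probes (0.71 on the brightest, SE 0.12, limma adjusted p = 0.023), whereas the astrocyte list had a median of 0.01. All 8 oligodendrocyte markers had a higher value on the brightest probe (median 0.18, none called), among them Mbp of myelin (0.15, limma adjusted p = 0.525). The other Mbp probes gave 0.62 and −0.20 (limma adjusted p = 0.126 and 0.484). The medians of the hippocampal neuron, endothelium, choroid plexus and oligodendrocyte precursor lists were 0.05, 0.11, 0.19 and 0.08, and those of the lymphocyte and red blood cell lists 0.12 and −0.34. In these 6 lists 2 markers were called, and both are named after their values were seen. Gpr17, a receptor of maturing oligodendrocyte precursors, was lower at 29M (−0.99, SE 0.21, limma adjusted p = 0.056), and Cd3d, a part of the T cell receptor complex, was higher (0.96, SE 0.13, limma adjusted p = 0.010), each without overlap of the ages. Lgmn and Ctsd are also expressed in microglia and Mapt in oligodendrocytes, and the part of cell composition in these values was not tested.

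Finally, the genes whose values most resembled those of App and Mapt over the 8 arrays were sought among 15912 genes, as a description without a test. Nearest to App were Nmt1, which encodes an N-myristoyltransferase (Pearson r = 0.973), Adrm1, which encodes a ubiquitin receptor of the proteasome (0.958), and Sbpl (0.952). None of these was called, and their log2 changes were −0.13, −0.19 and −0.21. Nearest to the brightest Mapt probe were Ccdc85b (0.970), Nfkbie, which encodes an inhibitor of NF-kappaB (0.967), and Ttyh2, which encodes a protein of the tweety family (0.960). Their log2 changes were 0.30, 0.40 and 0.54. The limma adjusted p of Ttyh2 was 0.101, just outside the threshold. It was called without 3M replicate 4 (0.68, limma adjusted p = 0.030) and under 4 other settings, with adjusted p from 0.081 to 0.099 in limma (bright probes only, robust prior, slide as a random block, and quantile normalization). The other Ttyh2 probe gave −0.17, and the mean of its probes was 0.19. The arrays share 3 slides and 2 ages, so that such likeness over 8 points can hold a common age difference.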

How the data were processed

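Hippocampal RNA was measured on 8 Agilent 1-colour arrays (3M, n = 4; 29M, n = 4), with groups and replicate numbers from the sample titles. Per the file headers, the authors extracted spot intensities with Feature Extraction 10.7.3.1, and the deposited intensities are not normalized between arrays. The array version, scanner and software named in the study's methods differ, and the headers were followed. The deposited table of the whole series holds local background and was not used.

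Control spots and outlier spots (127 to 190 per array) were removed. The median spot intensity deposited was put on a generalized log2 scale by variance stabilising normalization, the study's method, in an implementation written for this purpose in R 4.3.3 (trimming quantile 0.9, 7 iterations). A linear model of age was run in limma 3.58.1 on 39408 probes with at least 3 usable arrays per group. The type of normalization, model and thresholds are those of the study's methods. P-values were adjusted by Benjamini-Hochberg, and intervals are moderated 95% intervals. The number of arrays limits the precision. The normalization and tests were checked on simulated data. There, 30.3% of the true log2 changes of 0.5 were called and 86.6% of those of 1, and 7.98% of the calls were false. A change near the minimum of 0.5 can thus be missed.

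Probes were named by matching their transcript to RefSeq genes of GRCm38.p6, which named 26055 of 39429 probes. The arrays were designed on mm9, so no coordinates are given. The probe with the highest mean stood for a gene. Named genes were all members, any called gene and the largest rise and fall of each related list, 5 cell markers and the 3 genes most correlated with App and with Mapt. Lgmn, Psenen, Aph1a, Aph1b, Nrgn, Trem2, Gpr17, Cd3d, Sorcs1 and Cntn2 were added after their values were seen. One gene that the rule names is not reported here. The members and lists were chosen with earlier results of these data known. Alternatives covered normalization (processed signal scaled to the 75th percentile, normexp with an offset of 50 and quantile normalization, and the main method on the processed signal), spot and probe filters, slide, replicate number, thresholds, variance prior and each array left out.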

Additional observations from a re-analysis of the deposited data

Results flagged for a closer look

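In 4 of 82 groups of 4 arrays examined, 1 array stood apart from the other 3 by more of the group's range than is usual at this size, and chance alone gives about 4.1 such groups (1 in 20). For the brightest Mapt probe it was 3M replicate 4, at 16.60 beside 16.44 to 16.46, a gap of 0.846 of the range, and this array was the one that nearly met the aged arrays. For Ece2 it was also 3M replicate 4, at 11.28 beside 11.13 to 11.15 (gap 0.834 of the range). For Ttyh2 it was 29M replicate 1, at 13.68 beside 13.81 to 13.83 (gap 0.831 of the range). For Aph1a it was 29M replicate 4, at 13.02 beside 12.77 to 12.78 (gap 0.953 of the range).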

How the results depend on the processing

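No member probe was called in any of 19 refits, whose lowest adjusted p was 0.156, and no member gene had disagreeing probes in 16 refits. App stayed negative in 18 settings (−0.31 to −0.17), as did Bace1 (−0.23 to −0.12). Mapt, on its brightest probe or the mean of its probes (0.08 to 0.20), and Adam10 (0.05 to 0.12) stayed positive. The other Mapt probes changed sign, A_55_P2100149 (−0.01 to 0.06) in 1 of 17 settings and A_55_P2100155 (−0.06 to 0.10) in 2 of 17. Aplp1, Aplp2, Psen2 and Ncstn changed sign in 4, 5, 4 and 3 of 18 settings, and the median change of the members, −0.05 to 0.05, in 6 of 17. With each array left out the within-array differences were 0.21 to 0.35 for Adam10 minus Bace1, −0.29 to −0.15 for App and 0.15 to 0.22 for the brightest Mapt probe minus neuron markers. The last 2 had an adjusted p under 0.05 without 3M replicate 4 and with no other single array left out. For Mapt this came only from App reaching the same exact permutation p. On the processed signal App minus neuron markers was −0.10 under both scalings, and the cause was not tested. Of the related genes 1 was called with the main normalization on the processed signal (Ece2), with bright probes only (Ece2, fewer probes tested) and with slide as a fixed block (Dcx). With each array left out 0 to 3 were called, and the 3 were Ece2, Stmn3 and Tspan15 without 29M replicate 3. Lgmn and Sorl1 kept their direction in 18 settings. The number of arrays and, for Ncstn, the low signal over background limit these values.

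Replicate numbers did not pair the samples (correlations of same-numbered deviations −0.24, 0.21, −0.23 and 0.07, and not every array correlated best with its own number). With the replicate block 0 member probes and 0 related genes were called, and the within-array differences of 0.28, −0.20 and 0.19, which complete pairs leave equal by construction, had exact permutation p of 0.25, 0.25 and 0.125 (each 0.25 after adjustment), the last being the smallest that 4 pairs allow.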

Other observations

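Among the related genes with several probes, 3 had probes of opposite direction that came near the threshold for disagreement, although none passed it. For Sorcs1, a sorting receptor of the Sorl1 family, 1 probe had a log2 change of 0.35 (SE 0.13) and the other of −0.41 (SE 0.14), with an adjusted p of 0.112 in the limma diffSplice test. For Cntn2, which encodes an axonal adhesion protein that BACE1 can cut, the probes gave 0.17 (SE 0.13) and −0.58 (SE 0.19), with an adjusted p of 0.159 in the same limma test. For Dcx, whose probes are given above, the adjusted p was also 0.159 in this limma test. These genes were singled out here after their values were seen.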
